A study of Mus musculus with 8 samples.

Results

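The 10 genes described here encode the mucus of intestinal goblet cells and the factors that make it: *Muc2*, *Fcgbp*, *Zg16*, *Clca1*, *Agr2*, *Tff3*, *Spdef*, *Retnlb*, *Atoh1* and *Ang4*. They were chosen by symbol, with earlier results of these data known, and all 10 were found among the 52143 rows of the expression table. RNA came from the colon of mice (distal colon in the study's methods), 4 control and 4 Siglec-XII samples. Controls carried Villin1-Cre-ERT alone, and their Siglec-XII littermates carried SIGLEC12-Villin1-Cre-ERT, in which 1 floxed copy of human *SIGLEC12* sits in the ROSA26 locus under a CAG promoter and Cre removes a stop cassette with EGFP in front of it. The *Villin1* promoter drives Cre-ERT, a recombinase that tamoxifen activates, in the epithelium of the small and large intestine. Both groups were female mice of 8 weeks that received tamoxifen (10 mg/mL) for 5 days, and tissue was taken 7 days after the last injection, on day 12. No tumor-inducing treatment had been given. The labels list 4 samples per group while the design text speaks of fewer mice, and the methods speak of technical replicate libraries, so the p-values below measure the spread between these samples, which may be partly technical. Expression of Siglec-XII itself was not analysed here.

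Goblet cells are the mucus-secreting cells of the gut lining, and the colon, which holds most of the bacteria, is rich in them. They release Muc2, a large glycoprotein that polymerizes into a gel, together with proteins that fold, cut, bind and armor that gel. A bHLH transcription factor, Atoh1, commits crypt progenitors to secretory fates, and the ETS factor Spdef drives goblet cells to mature. The genes are taken below in the order of these roles: the mucin and its partners, the small secreted proteins, the foldase, the transcription factors and the inducible antimicrobials.

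*Hoxb13* and *Hoxd13*, patterning genes of the hindgut, were 8.67 ± 0.14 and 6.61 ± 0.24 log2(TPM + 1) in controls (SD, n = 4), where TPM is transcript abundance corrected for transcript length and scaled to a total of 1000000 in every sample. Of 12 genes of small intestine and Paneth cells, 2 (*Apoa4* and *Defa30*) were listed at 0 in all 8 samples and 5 passed the filter on low values, with *Fabp6* at a control TPM of 27.6, *Fabp2* at 14.7, *Lyz1* at 4.51, *Apob* at 3.64 and *Itln1* at 1.89. Siglec-XII samples 3 and 4 stood apart from the other 6 on the first principal component of all tested genes, at 36.2 and 50.2 against a range of -29.0 to -4.80. On the second component, control 1 stood apart, at 47.7 against a range of -22.8 to 16.4. Differences without Siglec-XII samples 3 and 4 are given beside the results below. Those without control 1 are given for *Muc2*, *Fcgbp*, *Clca1* and *Spdef* below and for the other genes in the closing section. In bulk tissue, fewer goblet cells and less RNA per goblet cell cannot be told apart.

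*Muc2* and *Fcgbp* are shown first by their promoters, because they encode the gel and a large protein of that gel. Both were lowest in control 1, as were *Clca1* and the epithelial markers *Epcam* and *Krt8*, though not every epithelial marker. The 250 bases before the RefSeq start of each gene (GRCm38.p6) are printed 5′ to 3′ on the sense strand, with the E-box CAGCTG in capitals, a hexamer of the kind that bHLH factors bind. *Muc2* lies at chr7:141690090-141690339 on the plus strand, and its match starts 112 bases before the start. *Fcgbp* lies at chr7:28070986-28071235 on the plus strand, with a match 208 bases before the start. *Agr2*, at chr12:35992675-35992924 on the plus strand, has no match and is shown for comparison.
Muc2: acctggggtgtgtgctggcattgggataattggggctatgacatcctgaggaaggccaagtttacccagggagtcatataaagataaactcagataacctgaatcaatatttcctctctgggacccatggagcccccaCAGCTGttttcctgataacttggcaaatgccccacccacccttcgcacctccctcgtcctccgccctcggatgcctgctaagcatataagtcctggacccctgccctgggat
Fcgbp: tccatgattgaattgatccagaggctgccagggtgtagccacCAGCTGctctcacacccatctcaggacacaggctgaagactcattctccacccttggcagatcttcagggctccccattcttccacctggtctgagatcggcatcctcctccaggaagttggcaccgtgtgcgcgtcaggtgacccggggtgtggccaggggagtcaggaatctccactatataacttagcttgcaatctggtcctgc
Agr2: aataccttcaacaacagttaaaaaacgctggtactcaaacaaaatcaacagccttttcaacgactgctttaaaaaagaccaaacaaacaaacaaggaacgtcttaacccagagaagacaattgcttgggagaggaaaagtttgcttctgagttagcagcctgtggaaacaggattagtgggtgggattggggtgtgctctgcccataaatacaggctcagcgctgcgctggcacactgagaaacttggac
Of the 10 genes, 6 had a promoter in the table used, and 2 of these held the E-box, which reads the same on both strands. It occurred in 13% of all 32851 promoters of this length. The forkhead motif TGTTTAC was searched on both strands and was in 0 of the 6 and in 3.17% of all promoters. These matches are descriptions of letters and not of binding.

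In control colon the 10 genes covered a wide range of levels. *Zg16* was highest at a TPM of 5064 ± 618, followed by *Tff3* (3004 ± 410), *Agr2* (1445 ± 106), *Clca1* (777 ± 96.1) and *Fcgbp* (541 ± 119). *Muc2* was at 93.4 ± 37.5, *Atoh1* at 33.2 ± 5.41 and *Spdef* at 25.7 ± 5.13. *Ang4* (7.69 ± 7.69) and *Retnlb* (1.79 ± 1.24) were lowest (all SD, n = 4). Thus 5 of the 10 genes stood among the 300 highest rows of the table. By mean control TPM, *Zg16* ranked 16, *Tff3* 40, *Agr2* 111, *Clca1* 206, *Fcgbp* 278 and *Muc2* 1371, whereas *Retnlb* ranked 12194. For scale, the 3 highest rows were *Sprr2a2* at a TPM of 29047, *Mir6236* at 27070 and *Lypd8*, which encodes a protein that keeps flagellated bacteria off the colon surface, at 17285. Control ranges of neighbors in the order did not overlap down to *Atoh1*. *Atoh1* and *Spdef* did overlap, and *Spdef* was the higher of the pair in control 1. *Ang4* and *Retnlb* also overlapped in range, although *Ang4* was higher in each of the 4 controls.

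**Figure D1:**
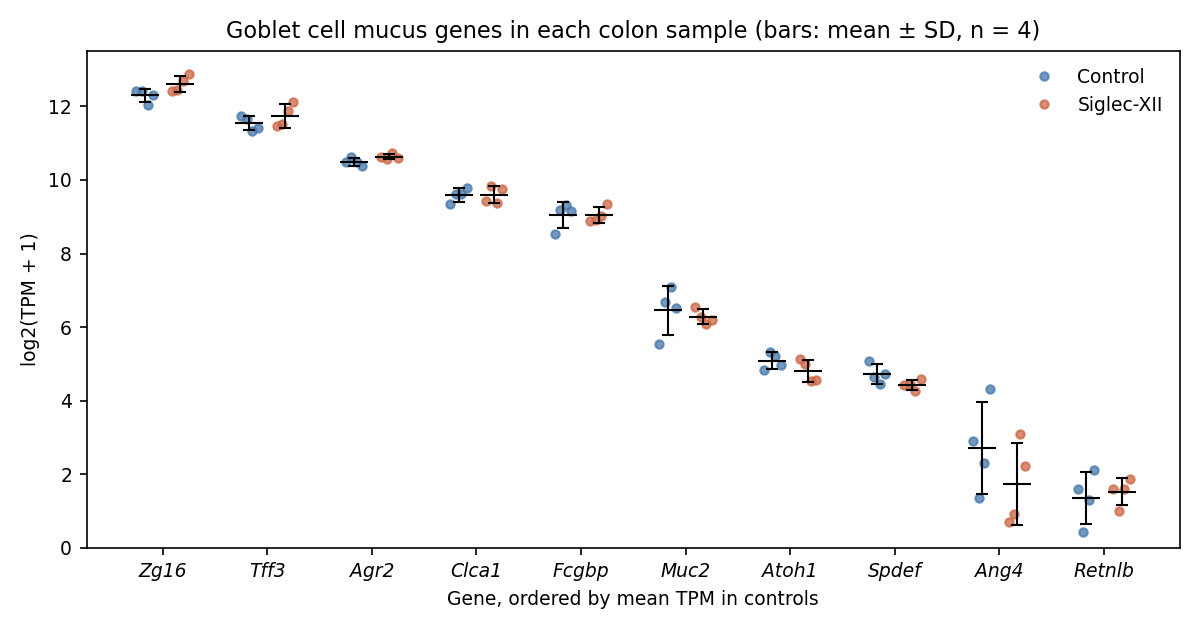
log2(TPM + 1) of each gene (vertical axis) in the 4 control (blue) and 4 Siglec-XII (orange) samples, with genes in order of mean control TPM and black bars for mean ± SD. The order falls from Zg16 to Retnlb, the groups overlap in every gene, and Ang4 and Retnlb have the widest spread.

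Together the 10 genes held 1.15%, 1.19%, 0.984% and 1.07% of all TPM in controls 1 to 4 and 1.11%, 1.16%, 1.33% and 1.52% in Siglec-XII samples 1 to 4. Siglec-XII samples 1 and 2 thus fell within the range of the controls, and samples 3 and 4 above it. Controls averaged 1.10% ± 0.0906 against 1.28% ± 0.187 for the Siglec-XII group (SD, n = 4 each). The difference was 0.181 percentage points, and it was 0.0354 without Siglec-XII samples 3 and 4. No test was made of this sum. *Zg16* alone made up 46.1% of it in controls, *Tff3* 27.3%, *Agr2* 13.1%, *Clca1* 7.07% and *Fcgbp* 4.92%, whereas *Muc2* made up 0.849%.

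**Figure D2:**
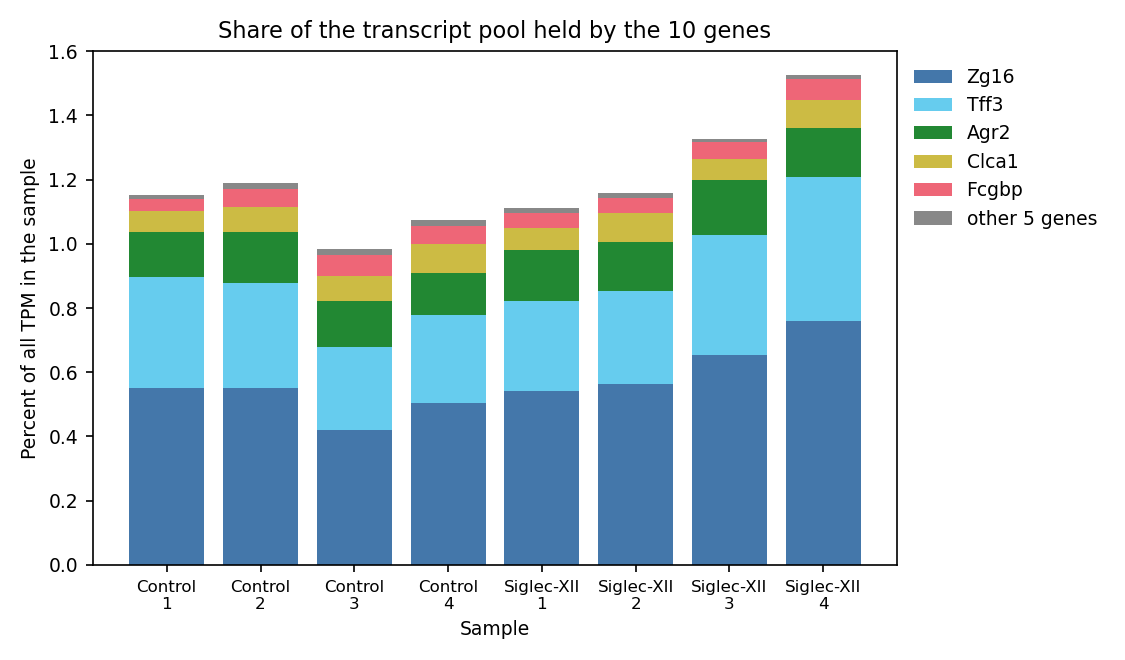
Percent of all TPM in each of the 8 samples (horizontal axis) held by the 10 genes, stacked by gene from 0. Siglec-XII samples 3 and 4 reach 1.33% and 1.52%, and the other 6 samples lie between 0.984% and 1.19%; Zg16, Tff3 and Agr2 form most of each bar.

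To ask whether Siglec-XII in the epithelium went with a change in these genes at baseline, the groups were compared with limma on the 13164 genes that reached a TPM of 1 in 4 or more samples. All 10 genes passed this filter, *Retnlb* and *Ang4* with 6 samples each at a TPM of 1 or more. None of the 10 had an adjusted p of 0.05 or less, against 0.038% of all genes tested, and 0 had an unadjusted p of 0.05 or less, against 8.87% of all genes (1.19% higher and 7.67% lower in Siglec-XII samples). Likewise 0 combined that p with a fold-change of 2 or more, against 0.919% of all genes. None showed groups without overlap, against 5.11% of all genes. Of the 10 differences, 5 were above 0 and 5 below, with a median of -0.0033 log2 units, while the median over all genes was -0.15 and 78.1% of them were below 0. Without Siglec-XII samples 3 and 4, 3 of the 10 were above 0 and 7 below, with a median of -0.048 against 0.0031 over all genes. Values below keep the authors' scale, in which this overall shift remains. The shift was 0.02 after quantile normalization and 0.06 after median centring.

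**Figure D3:**
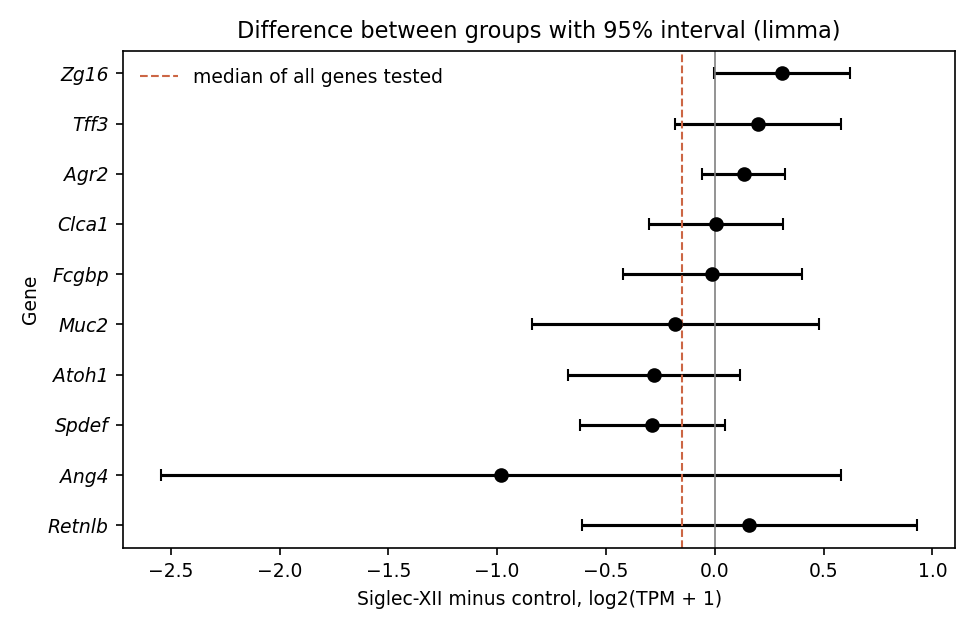
Difference between Siglec-XII and control samples in log2(TPM + 1) for each gene (points), with 95% intervals from limma. Every interval includes 0, Agr2 has the narrowest, Ang4 the widest, from -2.54 to 0.58, and the dashed line marks the median of all genes at -0.15.

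*Muc2* (ENSMUSG00000025515), the gel-forming mucin, lies on chromosome 7 of GRCm38 from 141690340 to 141754693 on the plus strand. It was at a TPM of 45.3, 101, 136 and 90.9 in controls 1 to 4 and 93.2, 76.7, 66.8 and 71.7 in Siglec-XII samples 1 to 4. Control 1 was the lowest of all samples and control 3 the highest, so the controls enclosed the Siglec-XII samples. The difference was -0.18 log2 units (95% interval -0.84 to 0.48, adjusted p = 0.765 from limma). It moved to -0.49 without control 1 (unadjusted p = 0.0186 and adjusted p = 0.447 from limma) and to 0.034 without control 3, and was -0.038 without Siglec-XII samples 3 and 4. GENCODE M21 marks this locus as fragmented, with 8 transcript models of which the longest has 2926 bases, far short of a full-length mucin messenger. The symbol also fills 2 rows of the table with the same values, and TPM sums to 1000000 only with both rows counted. Summed, they gave a TPM of 187 ± 75.04 for the controls against 154 ± 22.9 for the Siglec-XII group (SD, n = 4), still between *Fcgbp* and *Atoh1*. The level of *Muc2* relative to the other genes is therefore uncertain, whereas the comparison between groups changed little (-0.18 with the rows summed).

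*Fcgbp* (ENSMUSG00000047730), which encodes a large mucus protein with von Willebrand factor domains like those of Muc2, lies on chromosome 7 from 28071236 to 28120862 on the plus strand. Its TPM was 368, 583, 640 and 574 in controls 1 to 4 and 475, 478, 514 and 655 in Siglec-XII samples 1 to 4. As with *Muc2*, control 1 was lowest, and Siglec-XII sample 4 was highest. The group means were 9.05 ± 0.36 and 9.04 ± 0.22 log2(TPM + 1), with a difference of -0.01 (95% interval -0.42 to 0.40, adjusted p = 0.978 from limma), and -0.15 without Siglec-XII samples 3 and 4. Without control 1 the difference was -0.19. Windows of 31 bases were shared with other genes in 12.3% of cases, mostly with *9530053A07Rik*, whose TPM was 0.0288 ± 0.00568 in controls (SD, n = 4).

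*Clca1* (ENSMUSG00000028255), on chromosome 3 from 145003817 to 145032776 on the minus strand, encodes a secreted metalloprotease that cuts Muc2 and loosens the gel. Its TPM was 650, 782, 791 and 884 in controls 1 to 4 and 688, 906, 666 and 868 in Siglec-XII samples 1 to 4. Control 1 was the lowest of all samples, as for *Muc2* and *Fcgbp*. Each group had a sample near the bottom and near the top of the range. The difference was 0.0048 log2 units (95% interval -0.30 to 0.31, adjusted p = 0.987 from limma), 0.032 without Siglec-XII samples 3 and 4 and -0.078 without control 1. A change of the size of the fold limit of the study, 2, lies outside this interval and outside those of *Fcgbp* and *Muc2*.

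*Zg16* (ENSMUSG00000049350), on chromosome 7 from 127050156 to 127087328 on the minus strand, encodes a small lectin that binds the cell wall of Gram-positive bacteria. Its TPM was 5511, 5513, 4202 and 5031 in controls 1 to 4 and 5427, 5620, 6545 and 7586 in Siglec-XII samples 1 to 4. Siglec-XII samples 2 to 4 were above every control, and sample 1 was below controls 1 and 2. The difference of 0.31 log2 units (95% interval -0.0044 to 0.62) had the smallest p of the 10 genes, 0.0526, and an adjusted p of 0.515 from limma. It was 0.13 without Siglec-XII samples 3 and 4, 0.036 after quantile normalization and 0.52 after median centring.

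*Tff3* (ENSMUSG00000024029), on chromosome 17 from 31125306 to 31129646 on the minus strand, encodes a trefoil peptide that is secreted with mucus and aids repair of the epithelium. Its TPM was 3440, 3255, 2574 and 2747 in controls 1 to 4 and 2803, 2915, 3742 and 4480 in Siglec-XII samples 1 to 4. Siglec-XII samples 3 and 4 were again the highest, and samples 1 and 2 lay among the controls. The difference was 0.20 log2 units (95% interval -0.18 to 0.58, adjusted p = 0.591 from limma), and -0.062 without Siglec-XII samples 3 and 4.

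*Agr2* (ENSMUSG00000020581), on chromosome 12 from 35992907 to 36004087 on the plus strand, encodes a protein disulfide isomerase of the endoplasmic reticulum that Muc2 production needs. It was the steadiest of the 10 genes, at a TPM of 1431, 1585, 1435 and 1328 in controls 1 to 4 and 1581, 1520, 1688 and 1536 in Siglec-XII samples 1 to 4. All 4 Siglec-XII samples were above the control mean, but control 2 exceeded 3 of them. The difference was 0.13 log2 units (95% interval -0.06 to 0.32, adjusted p = 0.523 from limma), the narrowest interval of the 10, and 0.10 without Siglec-XII samples 3 and 4.

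*Atoh1* (ENSMUSG00000073043), on chromosome 6 from 64729125 to 64731245 on the plus strand, was at a TPM of 27.4, 39.1, 36.2 and 30.1 in controls 1 to 4 and 33.9, 31.02, 22.2 and 22.4 in Siglec-XII samples 1 to 4. Siglec-XII samples 3 and 4, the highest for *Zg16* and *Tff3*, were the lowest here. The difference was -0.28 log2 units (95% interval -0.67 to 0.12, adjusted p = 0.522 from limma) and -0.020 without these samples.

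*Spdef* (ENSMUSG00000024215), on chromosome 17 from 27714352 to 27728955 on the minus strand, was at a TPM of 32.9, 23.9, 20.8 and 25.3 in controls 1 to 4 and 20.4, 21.1, 18.2 and 23.1 in Siglec-XII samples 1 to 4. Control 1 was the highest of all samples, the reverse of its place for *Muc2*, *Fcgbp* and *Clca1*, and no Siglec-XII sample exceeded the control mean on the log2 scale. The difference was -0.29 log2 units (95% interval -0.62 to 0.05, unadjusted p = 0.0834 and adjusted p = 0.515 from limma). After median centring it was -0.074, and without control 3 it was -0.38 (unadjusted p = 0.0337 from limma). It was -0.28 without Siglec-XII samples 3 and 4 and -0.17 without control 1.

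*Ang4* (ENSMUSG00000060615), on chromosome 14 from 51763878 to 51773590 on the minus strand, encodes a secreted ribonuclease of the angiogenin family with antimicrobial activity, made by Paneth and goblet cells. It varied most, at a TPM of 6.45, 1.54, 3.94 and 18.8 in controls 1 to 4, so that the highest control was 12.2 times the lowest. In Siglec-XII samples 1 to 4 it was 0.632, 0.893, 7.47 and 3.66. Samples 1 and 2 lay below every control, and samples 3 and 4 lay within the range of the controls. The difference of -0.98 log2 units had a 95% interval from -2.54 to 0.58 (adjusted p = 0.546 from limma), so that a fold-change of 2 in the lower direction was inside it. Without Siglec-XII samples 3 and 4 it was -1.90 (unadjusted p = 0.0377 and adjusted p = 0.991 from limma). Of its windows of 31 bases, 13.8% occur in other genes, mostly in *Ang5*, which was listed at 0 in all samples.

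*Retnlb* (ENSMUSG00000022650), on chromosome 16 from 48816856 to 48818892 on the plus strand, encodes resistin-like beta, a goblet cell protein induced by bacteria and type 2 cytokines. Its TPM was 2.01, 0.36, 1.45 and 3.35 in controls 1 to 4 and 2.06, 0.994, 2.05 and 2.63 in Siglec-XII samples 1 to 4. Control 4 was highest for both *Retnlb* and *Ang4*, and control 2 was the lowest control for both. The difference was 0.16 log2 units (95% interval -0.61 to 0.93, adjusted p = 0.825 from limma), a wide interval at a low level, and -0.058 without Siglec-XII samples 3 and 4.

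The differences were also set against transcript length, without a test. Of the 5 genes with a transcript of 1000 bases or less (*Zg16*, *Agr2*, *Tff3*, *Retnlb* and *Ang4*), 4 were above 0, with a median of 0.16, and of the 5 longer ones 1 was above 0, with a median of -0.18. Within these groups the order did not follow length, since *Ang4* (709 bases) had the lowest difference of all and the longest transcripts, those of *Fcgbp* (7926) and *Clca1* (3655), had differences near 0. Over all tested genes, the median difference was -0.09 for transcripts of up to 500 bases and also for those up to 1000 bases, -0.10 up to 2000, -0.16 up to 4000 and -0.24 above 4000. In the longest class, which holds *Fcgbp*, the median deviation from the control mean was -0.44 and -0.62 log2 units in Siglec-XII samples 3 and 4 and -0.23 in control 1. In the class up to 4000, which holds *Muc2* (2690 bases), it was -0.26, -0.41 and -0.13. *Muc2*, *Fcgbp* and *Clca1* were lowest in control 1, whereas *Fcgbp* was highest in Siglec-XII sample 4. With each sample centred within 20 classes of length, the difference was 0.39 for *Zg16*, 0.27 for *Tff3*, 0.22 for *Agr2*, 0.29 for *Fcgbp*, 0.20 for *Clca1*, -0.022 for *Muc2*, -0.16 for *Atoh1*, -0.17 for *Spdef*, -0.90 for *Ang4* and 0.24 for *Retnlb*, and no gene of the 10 passed after adjustment (limma). Unadjusted p was then 0.0369 for *Agr2* and 0.0421 for *Zg16*. The part of length in the values as deposited was not tested.

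**Figure D4:**
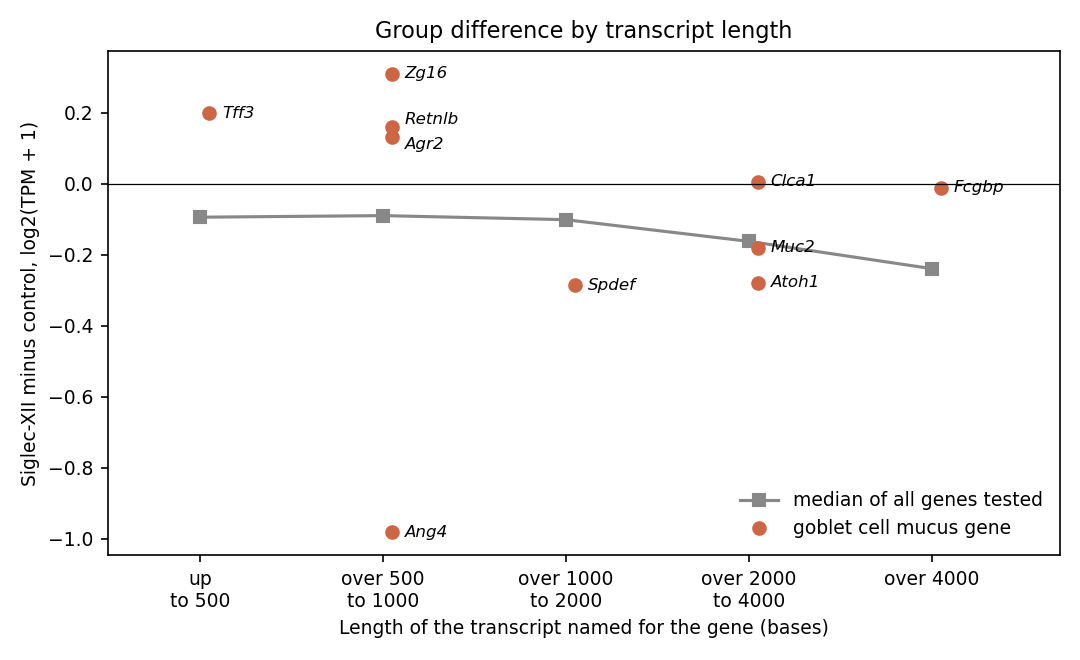
Difference between Siglec-XII and control samples in log2(TPM + 1) (vertical axis) by length class of the transcript in bases (horizontal axis), for the 10 genes (orange points) and as the median of all tested genes (grey squares). The medians go from -0.09 in the shortest to -0.24 in the longest class, and Zg16, Tff3, Agr2, Retnlb, Clca1 and Fcgbp lie above the median of their class.

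Markers of other cells were summed in each sample. The 12 smooth muscle markers summed to a TPM of 901 to 1394 in controls and 442 to 926 in Siglec-XII samples, and all 12 had differences below 0 (median -0.65), where 78.1% of all genes were below 0. Of the 12, 6 had an unadjusted p of 0.05 or less, against 7.67% of all genes in that direction, and 0 an adjusted one (limma). With Siglec-XII samples 3 and 4 left out the median was -0.38 and 4 of 12 passed unadjusted, all lower. Over all 13164 genes tested the median was then 0.0031, and 207 passed unadjusted in that direction. The 12 epithelial markers summed to 15627 to 20845 in controls and 16060 to 20547 in Siglec-XII samples, with a median difference of -0.02, and 0.14 without those samples. The 12 markers of absorptive colonocytes had a median difference of 0.0098, and likewise 0.14 without them. Against the epithelial sum, the 10 genes came to 60.5% ± 10.9 among controls against 69.5% ± 18.7 with Siglec-XII (SD, n = 4 each). The Siglec-XII samples 1 to 4 were at 54.1%, 56.9%, 72.1% and 94.9%, and without samples 3 and 4 their mean was 55.5%, below that of the controls. With each sample centred on its epithelial markers, *Atoh1* differed by -0.26 (unadjusted p = 0.0244 and adjusted p = 0.356 from limma) and *Zg16* by 0.33. Fibroblast markers (5 tested, all below 0), enteroendocrine and tuft cell markers (5 tested, all below 0) and immune markers (3 tested, all below 0) had 0 genes past adjustment, while 78.1% of all genes were below 0. *S100a8*, a neutrophil gene, was at -2.61, and at -2.47 without Siglec-XII samples 3 and 4. Of 5 small intestine and Paneth cell genes tested, 3 were above 0, with *Lyz1* at 1.10, and of 6 hindgut *Hox* genes 3 were above 0. With Siglec-XII samples 3 and 4 left out, 0 of 5 fibroblast, 1 of 5 enteroendocrine and tuft cell, 0 of 3 immune, 3 of 5 small intestine and Paneth cell (*Lyz1* at 1.31) and 6 of 6 *Hox* genes were above 0. Of all 13164 genes tested, 6701 were then above 0. The part of the muscle difference, or of the others, in these values was not tested.

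Other genes of the goblet program were looked up by name. Of 17 regulators of the secretory lineage, all tested, 0 had an adjusted p of 0.05 or less and 0 an unadjusted one, 4 were above 0 and 13 below, and the median was -0.13, close to the 78.1% below 0 and the median of -0.15 over all genes. On leaving out Siglec-XII samples 3 and 4, 12 were above 0 and 5 below, with a median of 0.059. In that setting 6701 of all 13164 genes were above 0, with a median of 0.0031. The smallest p belonged to *Hes1*, a Notch target that represses *Atoh1* (6.53 ± 0.16 and 6.78 ± 0.19 log2(TPM + 1), SD, n = 4 each, difference 0.25), followed by the forkhead factor *Foxa2* (-0.37), the corepressor *Cbfa2t3* (-0.37) and *Sox9* (-0.41). These differences were then 0.38 for *Hes1* (unadjusted p = 0.0176 and adjusted p = 0.991 from limma), -0.084 for *Foxa2*, -0.069 for *Cbfa2t3* and 0.059 for *Sox9*.

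Of 31 genes listed as other products of goblet cells, 29 were tested and 0 had an adjusted p of 0.05 or less. The list is not restricted to these cells, and *Itln1* stands in the small intestine and Paneth cell list as well. Without adjustment 3 passed, all higher in Siglec-XII samples, where 1.19% of all genes were. They were *Kdelr3*, a receptor that returns proteins to the endoplasmic reticulum (3.37 ± 0.16 and 3.69 ± 0.13 log2(TPM + 1), difference 0.32), the protease gene *Tpsg1* (0.26) and *Sval1* (0.22), each with an adjusted p of 0.515 from limma. The 3 differences without Siglec-XII samples 3 and 4 were 0.34, 0.17 and 0.15, and none of these 3 passed unadjusted. In that setting 2 other genes of the list passed unadjusted, both higher, where 155 of all 13164 genes did. They were *Pdia6* (0.42, unadjusted p = 0.00168) and *Best2* (0.22, unadjusted p = 0.0428), each with an adjusted p of 0.991 from limma. The membrane mucin *Muc3* differed by -0.53, and by -0.16 without those samples. The median of the 29 was 0.04, and 0.11 without them.

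Of 13 other mucins, 10 were found and 3 tested. *Muc4*, a membrane mucin, averaged 3.58 ± 0.67 log2(TPM + 1) among controls against 2.70 ± 0.51 with Siglec-XII (SD, n = 4 each, difference -0.88, unadjusted p = 0.0356 and adjusted p = 0.515 from limma). *Muc13* differed by -0.17 and *Muc1* by 0.02. Without Siglec-XII samples 3 and 4, *Muc4* differed by -0.47, *Muc13* by 0.18 and *Muc1* by 0.092. The gel-forming mucins of stomach and airway, *Muc5ac*, *Muc5b* and *Muc6*, fell below the filter.

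Among 21 relatives of the 10 genes, 18 were found and 10 were tested, and 0 had an adjusted p of 0.05 or less. *Clca3b* stood at a TPM of 77.1 ± 23.8 among controls against 41.9 ± 17.2 with Siglec-XII (SD, n = 4 each, log2 difference -0.90, unadjusted p = 0.0162 and adjusted p = 0.515 from limma). *Clca4a* differed by 0.28, *Clca4b* by 0.45 and *Clca3a2* by -0.31. *Ang*, the ubiquitous angiogenin, was at a TPM of 20.7 and 20.2, above *Ang4* in both groups, and differed by -0.04. *Rnase4* differed by 0.0016 and *Rnase1* by -1.05. *Retn* differed by 0.55, *Retnla* by -0.41 and *Agr3*, at a TPM of 1.36 in controls, by 0.03. Without Siglec-XII samples 3 and 4, *Clca3b* differed by -0.44, *Rnase1* by -0.65, *Clca4a* by 0.51 (unadjusted p = 0.0426 and adjusted p = 0.991 from limma), *Clca4b* by 0.67, *Retn* by 0.75, *Retnla* by -0.48, *Agr3* by 0.25, *Clca3a2* by -0.075, *Rnase4* by 0.055 and *Ang* by 0.080.

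**Figure D5:**
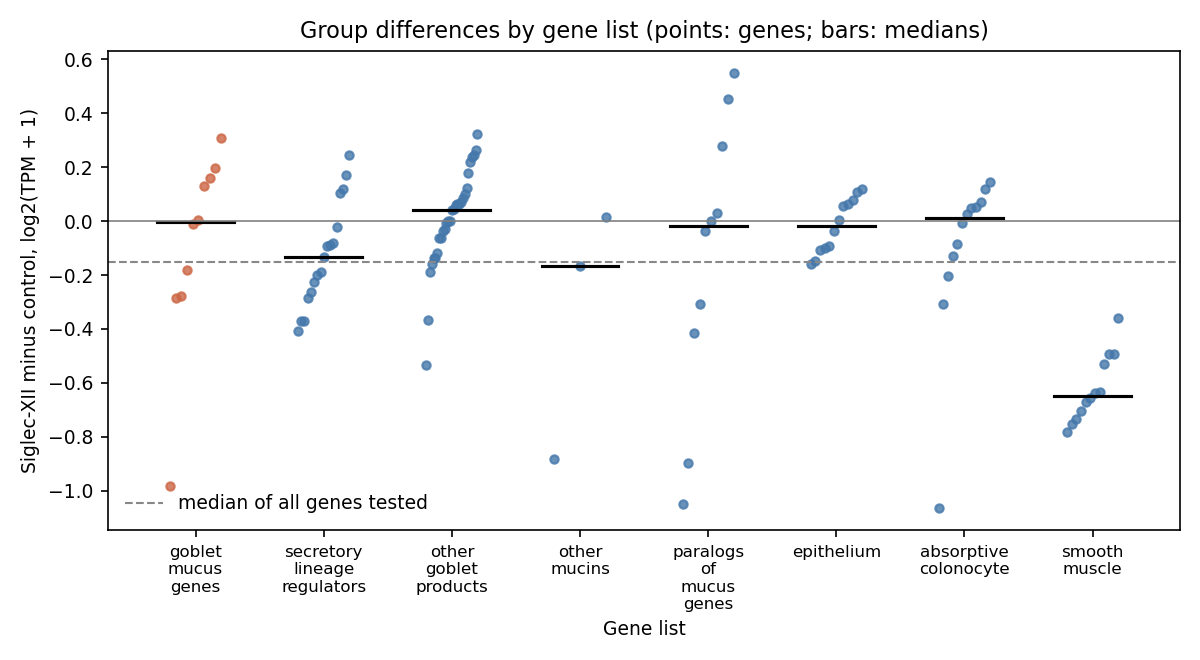
Difference between Siglec-XII and control samples in log2(TPM + 1) for each tested gene (points) of the 10 goblet cell mucus genes (orange) and of 7 other lists (blue), with black bars for list medians. The mucus genes spread around 0, the dashed line marks the median of all genes at -0.15, and the 12 smooth muscle genes all lie below 0.

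The genes whose values ran most like the mean of the 10 over the 8 samples were *5430405H02Rik* (Pearson r = 0.89), *Npb* (0.89), *Gm44478* (0.89), *Gpx3* (0.88) and *Zfp868* (0.86), chosen among all tested genes and given without a test. *Ang4*, the gene with the widest spread and itself part of that mean, had an r of 0.88 with it, and *Retnlb* had 0.68. The other mucus genes followed it less: *Fcgbp* 0.47, *Clca1* 0.29, *Spdef* 0.17, *Tff3* 0.17, *Zg16* 0.06, *Muc2* 0.05, *Atoh1* -0.39 and *Agr2* -0.52.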

How the data were processed

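The authors quantified reads with kallisto (version 0.45.0 and build GRCm38 in the submitters' processing notes, whereas the paper's methods name a human reference) and deposited log2(TPM + 1) for 52143 genes in each of 8 samples. TPM keeps no depth, so no counting error or detection floor was computed. The strand setting is not given in the sources used here. A symbol that fills several rows (718 further rows) was looked up by the row with the highest mean. In 334 of 425 such symbols above 0 the rows held the same values, to every deposited digit.

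DESeq2, which the authors ran on counts, was not used here, since the deposited values are log2(TPM + 1). Groups were compared by limma (version 3.58.1, R 4.3.3) with a trended prior variance and Benjamini-Hochberg adjustment over the 13164 genes that reached a TPM of 1 in 4 or more samples, and the code was tested on simulated data. Gene positions are those of GENCODE M21, which holds 98.3% of the gene identifiers, and promoters those of RefSeq. Python 3.11.15 and matplotlib 3.10.9 were used for summaries and figures. Windows of 31 bases were searched in all GENCODE transcripts on both strands. Alternatives were other filters (none, TPM of 5), a pseudocount of 0.1, quantile, median and epithelial centring, array weights, variance without moderation, the replicate number as a block and each sample left out. Centring by length, leaving out Siglec-XII samples 3 and 4 and summing the Muc2 rows were added after seeing the data. The 10 genes and all lists were chosen with earlier results of these data known. The rule for named genes took all 10, the 3 highest control genes, up to 4 genes of smallest p from each list, every tested relative and the 5 genes most like the mean of the 10. Of the marker lists for other cells, mostly sums and counts are printed. Hoxb13, Hoxd13, Apoa4, Defa30, Fabp6, Fabp2, Apob, Itln1, Muc5ac, Muc5b, Muc6, Epcam, Krt8, Pdia6 and Best2 were named outside that rule, after their values were seen.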

Additional observations from a re-analysis of the deposited data

How the results depend on the processing

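Of the 10 genes, 0 had an adjusted p of 0.05 or less under any alternative (limma), and the lowest adjusted p in any of them was 0.269. At unadjusted p the count of 0 became 1 with a pseudocount of 0.1, 1 with quantile normalization, 1 with median centring, 1 with epithelial centring, 2 with array weights, 2 with length centring, 1 without Siglec-XII samples 3 and 4, and 0 to 2 on leaving out single samples (Muc2 and Zg16 without control 1, Spdef without control 3, Zg16 without Siglec-XII sample 1 or 2). For the regulators and other goblet products, 0 passed after adjustment under every alternative, while the 3 without adjustment became 11 with quantile normalization, 14 with median centring, 5 with epithelial centring, 9 with array weights, 8 with length centring and 0 to 4 on leaving out single samples (0 without control 4, 1 without Siglec-XII sample 3). With the replicate block the 3 became 0. The numbers mark no shared animal or day in the labels, same-numbered samples had correlations of their deviations from -0.20 to 0.10, and 0 of 8 samples correlated best with its own number. Of the differences of the 10 genes under alternatives, 142 moved by more than 0.001, and 124 of these kept their direction. Apart from the alternatives that left out a single sample, those that turned were: Muc2 0.032 with median centring, Fcgbp 0.046 with quantile normalization, 0.20 with median centring, 0.0065 with epithelial centring and 0.29 with length centring, Tff3 -0.062 and Retnlb -0.058 without Siglec-XII samples 3 and 4, and Retnlb -0.23 with array weights. On leaving out single samples, differences ranged from -0.49 to 0.034 for Muc2, -0.19 to 0.079 for Fcgbp, -0.078 to 0.078 for Clca1 and -0.15 to 0.41 for Retnlb. Muc2 turned without control 3, and Retnlb without control 2. Fcgbp turned without control 2, 3 or 4 or Siglec-XII sample 1 or 2, and Clca1 without control 1 or Siglec-XII sample 2 or 4. Without control 1 the difference was 0.35 for Zg16, 0.27 for Tff3, 0.13 for Agr2, -0.36 for Atoh1, -0.92 for Ang4 and 0.23 for Retnlb. The difference in the summed share (0.181 points) was 0.0995 (without Siglec-XII sample 4) to 0.237 on leaving out single samples, 0.0354 without Siglec-XII samples 3 and 4, and 8.98 points as a percent of the epithelial sum, where it turned to -5.04 without those samples. The cause of these shifts was not tested. With 4 samples per group and no read counts, the smallest detectable change in Ang4 and Retnlb was not computed. Their SD among controls was 1.24 and 0.70 log2(TPM + 1).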
